A study of Homo sapiens with 6 samples.

Results

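Chromatin accessibility at the tubulin and kinesin genes was measured by the assay for transposase-accessible chromatin with sequencing (ATAC-seq) in A375 cells, an established human melanoma line. The genes were the 66 protein-coding genes of GENCODE release 44 named TUBA, TUBB, TUBG, TUBD or TUBE with a number, TUBB itself, and KIF or KIFC with a number, which gave 24 tubulins and 42 kinesins. An accessible region, or peak, belonged to a gene when its centre lay inside the gene body, or when it lay between genes and the gene had the nearest protein-coding start site. By this rule 786 of 152800 peaks were members, and 743 of these were among the 150117 peaks with enough counts to be tested. The 43 member peaks that were not tested reached at most 36 counts in any library. KIF1C and TUBG1 held no peak, because their promoter peaks were centred in the neighbouring genes INCA1 and RETREG3. TUBA3FP, which the annotation lists as protein-coding, was kept.

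The series set 3 empty vector libraries of these cells beside 3 libraries of cells that overexpress HMGB2 (HMGB2OE), a DNA-bending chromatin protein. Both were untreated cells of 1 melanoma line, and the HMGB2OE line was made by lentiviral transduction and kept as a stable line. The study describes its ATAC-seq replicates as technical and the experiment as not repeated, so p-values here measure the spread between libraries, which may be technical. The labels name no batch. The question was which accessible regions changed with HMGB2, a protein that the study links to mechanical confinement and to a rebuilt microtubule network around the nucleus. The study places this network upstream of HMGB2, because it was unchanged in confined cells with HMGB2 knocked out. HMGB2 also still accumulated in confined cells without ATAT1, the enzyme that acetylates tubulin.

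Microtubules are hollow tubes of alpha- and beta-tubulin dimers that are nucleated from rings containing gamma-tubulin, while delta- and epsilon-tubulin belong to centrioles. Kinesins are motors that use ATP to walk along microtubules or to take apart their ends, and they carry cargo, build the mitotic spindle and divide the cell. In cells of neural crest origin such as melanocytes, motors also move pigment granules, and neurons use a characteristic set of tubulin isotypes and transport kinesins.

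Total counts in peaks ranged from 26910189 to 45645294 per library. Libraries were scaled by the TMM method with factors between 0.975 and 1.02, and values below are normalised counts, that is, raw counts rescaled to the mean effective library size. As nearly all peaks were 502 bases wide, normalised counts of peaks can be compared per length. The peak over the HMGB2 coding exons (chr4:173332680-173333181) had normalised counts of 50.0, 25.0 and 21.1 in empty vector and 102, 101 and 92.3 in HMGB2OE libraries, with the conditions apart. In this peak the plasmid copy and the gene itself cannot be told apart. Another peak inside the gene also rose (log2 fold change of HMGB2OE over empty vector 1.16), while the peaks outside it had log2 fold changes of -0.01 and -0.03. Promoter peaks of the melanocyte genes PMEL (3768 counts on average), MITF (1295) and SOX10 (862) were open, whereas MLANA, TYR, TYRP1 and DCT had no tested promoter peak. Thus 3 of 7 lineage markers had an accessible promoter peak. Each marker was read at the highest peak within 3 kb of a start site, which a neighbouring gene can share, and such sharing was not examined for the markers. Among markers of other cell types, CDH1 and PTPRC had none, while EPCAM (217), KRT18 (765) and CD3E (248) did.

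Of the 743 tested peaks 11 changed between the conditions, and the central 200 bases (hg38, plus strand) of the 5 with the largest fold changes are shown to place the regions on which the comparison rests. In all 5 the libraries of the conditions did not overlap. The regions, in order, are chr5:155402983-155403182 (intergenic, nearest to KIF4B), chr10:90205024-90205223 (intergenic, nearest to KIF20B), chr1:245605825-245606024 (intronic, in KIF26B), chr17:53193053-53193252 (intergenic, nearest to KIF2B) and chr1:10253742-10253941 (intronic, in KIF1B).

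KIF4B: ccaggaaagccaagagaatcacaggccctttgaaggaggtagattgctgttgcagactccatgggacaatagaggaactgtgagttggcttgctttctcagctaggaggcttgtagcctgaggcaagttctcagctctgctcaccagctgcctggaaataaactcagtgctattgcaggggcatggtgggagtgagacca
KIF20B: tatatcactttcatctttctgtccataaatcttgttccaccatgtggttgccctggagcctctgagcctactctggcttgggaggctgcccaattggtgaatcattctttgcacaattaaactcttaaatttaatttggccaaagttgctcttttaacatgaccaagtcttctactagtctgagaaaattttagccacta
KIF26B: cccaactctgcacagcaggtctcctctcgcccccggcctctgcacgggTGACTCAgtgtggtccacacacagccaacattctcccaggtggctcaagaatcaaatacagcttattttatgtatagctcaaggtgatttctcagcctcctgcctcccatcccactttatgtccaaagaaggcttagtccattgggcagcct
KIF2B: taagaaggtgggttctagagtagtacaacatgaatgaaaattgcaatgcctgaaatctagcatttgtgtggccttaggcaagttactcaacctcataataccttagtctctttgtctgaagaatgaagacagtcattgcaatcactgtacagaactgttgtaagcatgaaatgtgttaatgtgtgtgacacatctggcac
KIF1B: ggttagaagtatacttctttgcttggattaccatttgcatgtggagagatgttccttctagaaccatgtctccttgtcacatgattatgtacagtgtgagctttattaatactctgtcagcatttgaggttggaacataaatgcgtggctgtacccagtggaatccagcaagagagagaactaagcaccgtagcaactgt

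The capitals in the KIF26B sequence are the AP-1 word. Among the 5 regions it was present only there. Over whole peaks, the AP-1 word (TGACTCA, searched on both strands) lay in 28% of all tested peaks, in 3 of the 8 member peaks called higher and in 1 of the 3 called lower. Such a match describes the letters and is no evidence of binding.

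A second set of sequences is shown because the cell-cycle kinesins are a textbook group with shared promoter words. These are the promoters of the 6 among 12 mitotic kinesins with the highest promoter peak, taking for each gene its peak of highest mean count, from 250 bases before to 50 bases after the start site, 5′ to 3′ on the strand of the gene (RefSeq, GRCh38.p14). Capitals mark the CCAAT box (CCAAT, both strands) and the cell-cycle homology region (CHR; TTTGAA or TTCGAA, both strands). The regions are chr10:89701340-89701639 on the plus strand for KIF20B, chr6:33391573-33391872 on the plus strand for KIFC1, chr16:29790501-29790800 on the plus strand for KIF22, chr10:92592880-92593179 on the plus strand for KIF11, chr5:138178862-138179161 on the plus strand for KIF20A and chr11:28108107-28108406 on the minus strand for KIF18A. For KIF11 the peak of highest count shares 0 bases with the sequence shown, which lies under a second, weaker peak described with its summed count. Its place among the 6 rests on the peak of highest count.

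KIF20B: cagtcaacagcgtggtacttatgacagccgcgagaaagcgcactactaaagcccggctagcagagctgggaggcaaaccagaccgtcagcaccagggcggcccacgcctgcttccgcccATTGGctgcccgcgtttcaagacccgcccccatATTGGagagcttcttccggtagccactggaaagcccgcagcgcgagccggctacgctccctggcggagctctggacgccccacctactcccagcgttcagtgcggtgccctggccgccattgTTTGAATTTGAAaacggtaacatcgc
KIFC1: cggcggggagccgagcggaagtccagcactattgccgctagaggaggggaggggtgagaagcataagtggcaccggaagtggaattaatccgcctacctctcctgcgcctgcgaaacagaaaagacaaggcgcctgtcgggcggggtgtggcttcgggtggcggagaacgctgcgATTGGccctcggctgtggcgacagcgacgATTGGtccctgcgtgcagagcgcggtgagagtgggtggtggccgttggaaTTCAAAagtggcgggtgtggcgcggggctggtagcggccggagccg
KIF22: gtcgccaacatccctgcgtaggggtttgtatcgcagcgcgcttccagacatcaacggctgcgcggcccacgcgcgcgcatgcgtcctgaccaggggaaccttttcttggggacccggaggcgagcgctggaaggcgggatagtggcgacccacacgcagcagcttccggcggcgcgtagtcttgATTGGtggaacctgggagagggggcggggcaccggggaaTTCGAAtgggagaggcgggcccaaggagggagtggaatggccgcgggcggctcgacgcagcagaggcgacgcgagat
KIF11: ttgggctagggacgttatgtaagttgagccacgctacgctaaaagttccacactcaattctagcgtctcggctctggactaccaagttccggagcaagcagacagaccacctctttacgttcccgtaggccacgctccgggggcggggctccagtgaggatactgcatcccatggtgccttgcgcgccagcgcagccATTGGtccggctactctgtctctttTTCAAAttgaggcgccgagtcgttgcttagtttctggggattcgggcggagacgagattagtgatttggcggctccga
KIF20A: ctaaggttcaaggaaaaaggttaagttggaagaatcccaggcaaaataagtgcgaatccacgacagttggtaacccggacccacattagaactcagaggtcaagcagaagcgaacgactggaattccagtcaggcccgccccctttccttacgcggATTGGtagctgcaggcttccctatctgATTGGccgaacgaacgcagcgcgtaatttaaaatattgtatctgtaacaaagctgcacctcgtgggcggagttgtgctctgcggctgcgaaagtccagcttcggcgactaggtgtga
KIF18A: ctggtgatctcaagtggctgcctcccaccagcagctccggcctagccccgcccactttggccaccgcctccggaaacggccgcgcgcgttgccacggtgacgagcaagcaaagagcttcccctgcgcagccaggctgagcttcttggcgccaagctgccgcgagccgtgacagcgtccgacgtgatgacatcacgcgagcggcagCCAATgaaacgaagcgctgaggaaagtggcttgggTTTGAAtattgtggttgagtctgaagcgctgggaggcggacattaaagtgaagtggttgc

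Of the 66 members, 57 matched an entry of the promoter table by symbol. The CCAAT word lay in 10 of 12 mitotic kinesin promoters and in 30 of 57 member promoters, against 34.6% of all 35116 promoters of this length. The CHR word also lay in 10 of 12 mitotic kinesin promoters and in 15 of 57 member promoters, against 16.4% of all. It was found in 0 of 9 promoters of neuronal kinesins and tubulins. In the promoters shown, the CCAAT words began between 131 and 45 bases before the start, and no CCAAT word overlapped a CHR word. KIF20B held 2 adjoining CHR words, beginning 25 and 31 bases after the start (counting the start base as 1). Words of E2F sites (TTTCCCGC or TTTGGCGC, both strands) lay in 1 of 12 mitotic promoters, that of KIF15, against 2.27% of all, and the AP-1 word lay in 0 of 12.

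Of the 743 tested tubulin and kinesin peaks, 8 (1.08%) were higher and 3 (0.404%) were lower in HMGB2OE cells, where a call needed a fold change of at least 1.5 and an adjusted p under 0.05 in edgeR's quasi-likelihood test over all peaks. Effects are given as log2 fold changes of HMGB2OE over empty vector (log2FC) with their standard errors (SE). The background over all 150117 tested peaks was 1.87% called higher and 1.44% called lower. Without a fold limit, 12 member peaks (1.62%) were higher and 11 (1.48%) were lower, against 3.44% and 3.03% of all peaks. The 11 calls fell on 8 genes, of which 7 were kinesins (7 peaks higher and 3 lower of 389) and 1 was a tubulin (1 peak higher and 0 lower of 354). Of the 354 tubulin peaks 246 were nearest TUBA3C, and 0 of those were called. The tubulin count thus rests largely on that block, and tubulins and kinesins are not compared by it. In 132 member peaks (17.8%), the libraries of the conditions did not overlap, against 25.1% of all peaks. Without the 246 low-count peaks nearest TUBA3C, described below, 113 of 497 (22.7%) did not overlap, and 1.61% were called higher and 0.604% lower. The share of member peaks called was thus below the background in both directions, except that without empty vector library 2 the share called lower was 1.19% of 759 member peaks, against 1.03% of all. DESeq2's Wald test called 7 higher and 2 lower. Cells were measured in bulk, so a region more open in each cell and a region open in more cells cannot be told apart.

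None of the calls lay in a promoter. Of 236 tested intronic peaks 5 were called, and of 458 intergenic peaks 6 were called, among them 4 of the 275 that lay over 100 kb from the start of the gene. For such peaks the gene is only the nearest protein-coding start, and a link to the gene was not tested. The 458 include the 246 peaks nearest TUBA3C, of which 0 were called. Calls by place were not counted over all peaks, so these counts have no background here and the places are not compared.

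**Figure D1:**
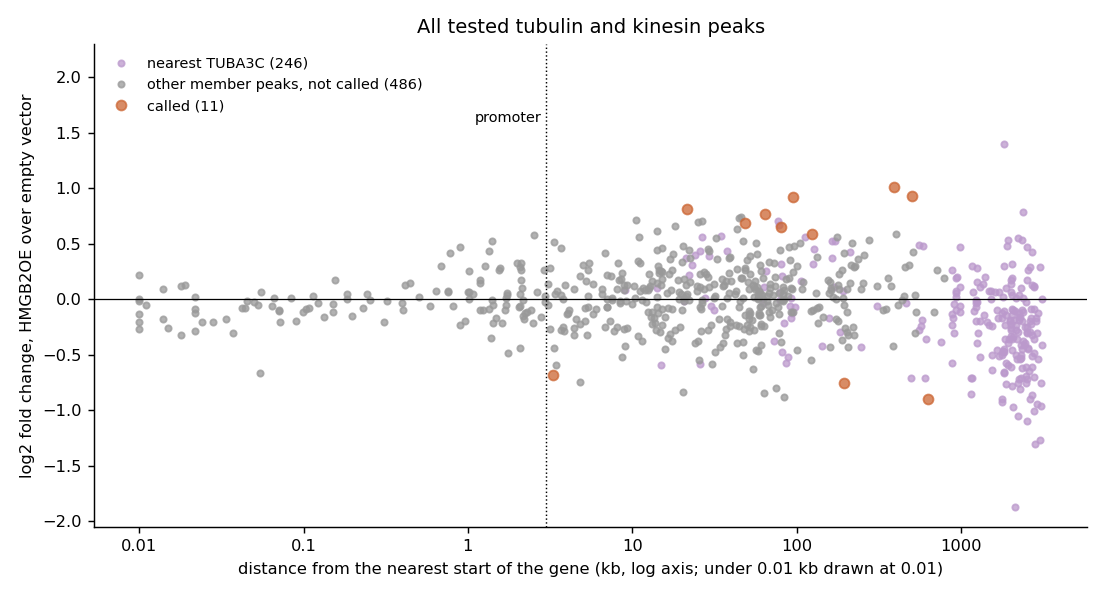
Each point is 1 of the 743 tested tubulin and kinesin peaks, placed by the distance of its centre from the nearest start site of the gene (kb, log axis) and by its log2FC in HMGB2OE over empty vector cells. The 11 called peaks all lie outside the promoter window of 3 kb, and the 246 peaks nearest TUBA3C lie mostly over 1 Mb away with a median log2FC of -0.17.

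KIF26B held the most calls of any member. KIF26B is a kinesin-11 whose motor domain does not hydrolyse ATP and which acts in cell adhesion and non-canonical Wnt signalling. The gene spans chr1:245154985-245709432 on the plus strand. It had 31 tested peaks (25 intronic), of which 3 were called higher, 1 more passed the adjusted p alone and 0 were lower. In an intron, the peak at chr1:245605674-245606175 had normalised counts of 239, 252 and 297 in empty vector and 443, 508 and 549 in HMGB2OE libraries. Every HMGB2OE library was above every empty vector library, and the log2FC was 0.92 (SE 0.113, adjusted p = 1.19e-05, edgeR). Another intronic peak, at chr1:245234578-245235079, was the most accessible of the called peaks, with counts of 549, 582 and 635 against 859, 928 and 994. Its log2FC was 0.65 (SE 0.0897, adjusted p = 4.57e-05).

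The other called peak in KIF26B was low. At chr1:245279309-245279810 the counts were 94.5, 89.5 and 80.7 in empty vector and 122, 131 and 148 in HMGB2OE libraries, a log2FC of 0.59 (SE 0.162, adjusted p = 0.024), just above the fold limit. The call was lost with DESeq2 (adjusted p = 0.0516), with the loess scaling (log2FC 0.56) and when any of 4 libraries was left out (empty vector 2 or 3, HMGB2OE 2 or 3; adjusted p from 0.0633 to 0.0979). A 4th peak, at chr1:245201752-245202253, rose from 349, 453 and 432 to 632, 611 and 542, with a log2FC of 0.53 (adjusted p = 0.0022), below the fold limit. These 4 peaks lay between 47.0 and 451 kb from the 5′ end of the gene. At the promoter of KIF26B (chr1:245156434-245156935), counts were 600, 648 and 580 in empty vector and 578, 666 and 602 in HMGB2OE libraries, which overlapped (log2FC 0.01, SE 0.0925). Over all 31 peaks, 21 had a log2FC above 0 and 10 below.

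**Figure D2:**
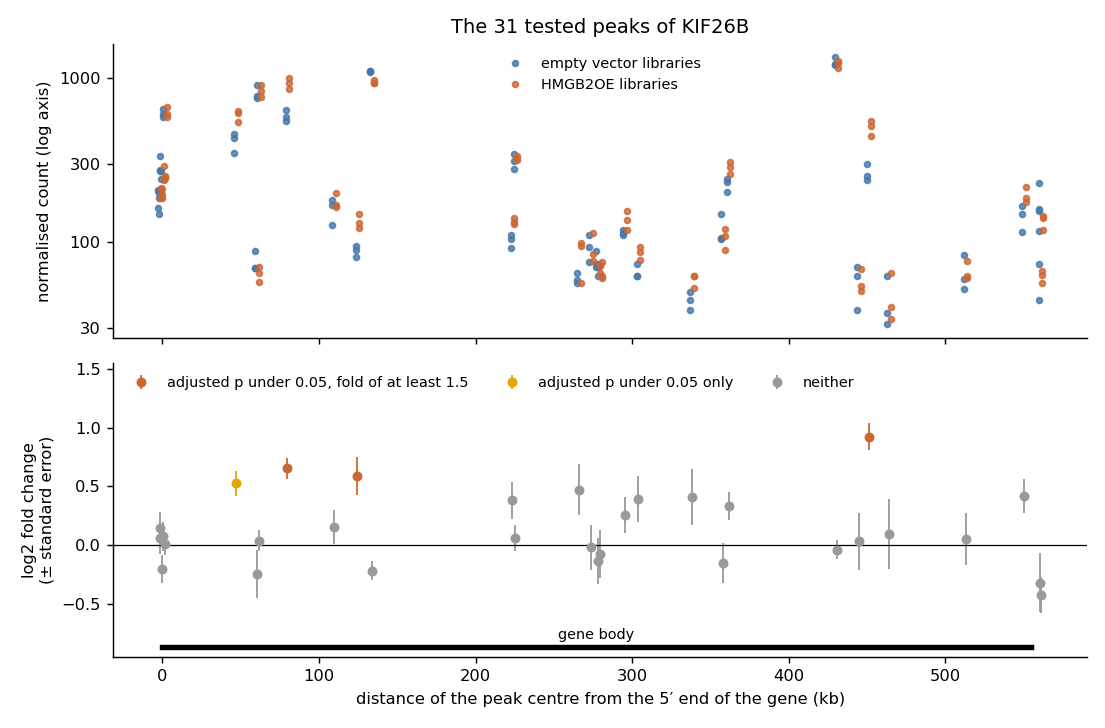
The 31 tested peaks of KIF26B by distance of the peak centre from the 5′ end of the gene (kb), with the gene body as a black bar. Upper panel, normalised count in each library (log axis); lower panel, log2FC of HMGB2OE over empty vector with its SE, where the 3 called intronic peaks lie between 0.59 and 0.92 and the peaks at the 5′ end lie near 0.

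Other rises were found at kinesins of 4 further families. KIF4B is a close copy, without introns, of the chromokinesin KIF4A. The largest fold change of all member calls was at an intergenic peak 389 kb from KIF4B (chr5:155402832-155403333), where counts were 38.9, 29.3 and 56.2 in empty vector and 77.4, 86.7 and 83.3 in HMGB2OE libraries (log2FC 1.01, SE 0.235, adjusted p = 0.00801). It did not pass without empty vector library 2 (0.78, adjusted p = 0.0727). KIF20B, a kinesin-6 of cytokinesis, had a called intergenic peak 503 kb from its start (chr10:90204873-90205374). Counts there were 43.1, 43.9 and 42.1 against 91.8, 78.4 and 76.6, the tightest empty vector values of all calls. The log2FC was 0.93 (SE 0.214, adjusted p = 0.00729, and 0.0595 without HMGB2OE library 1).

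KIF1B, a kinesin-3 that carries mitochondria and synaptic vesicle precursors, had a called intronic peak 21.5 kb from a start site (chr1:10253591-10254092). Its counts were 52.8, 36.1 and 51.5 in empty vector and 87.6, 79.2 and 75.4 in HMGB2OE libraries, which did not overlap (log2FC 0.81, SE 0.219, adjusted p = 0.0227). The call was lost without empty vector library 2, HMGB2OE library 1 or HMGB2OE library 2 (adjusted p of 0.143, 0.11 and 0.0622). KIF5B, the heavy chain of conventional kinesin, had a called peak 48.3 kb from its start (chr10:32104461-32104962), with counts of 76.4, 130 and 119 against 191, 143 and 202. The lowest HMGB2OE library was close to the highest empty vector library, the log2FC was 0.69 (SE 0.169, adjusted p = 0.0123), and the call was lost without empty vector library 1, HMGB2OE library 1 or HMGB2OE library 3 (adjusted p of 0.071, 0.0716 and 0.0568).

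Among tubulins the only call was an intergenic peak 64.2 kb from TUBA3E, an alpha-tubulin isotype (chr2:130262369-130262870). Normalised counts were 106, 146 and 144 in empty vector and 221, 201 and 265 in HMGB2OE libraries, which did not overlap. The log2FC was 0.77 (SE 0.145, adjusted p = 0.00132), and the call held under each of the 15 other settings tried. TUBA3E had 5 tested peaks and no promoter peak in the table.

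KIF2B and KIF3C carried the falls. KIF2B is a kinesin-13 that removes subunits from microtubule ends during mitosis. All of its 17 tested peaks were intergenic and it had no promoter peak. At chr17:53192902-53193403, 630 kb from its start, counts were 90.3, 98.9 and 86.6 in empty vector and 48.5, 49.2 and 50.7 in HMGB2OE libraries, a log2FC of -0.90 (SE 0.2, adjusted p = 0.00568). At chr17:53627854-53628355, 195 kb from its start, counts were 445, 400 and 329 against 263, 252 and 173, a log2FC of -0.76 (SE 0.134, adjusted p = 0.000735). This peak was rich in A and T (27.7% GC), and with GC-content offsets its log2FC was -0.48, short of the fold limit (adjusted p = 0.0164). A 3rd KIF2B peak passed the adjusted p alone (log2FC -0.45), and the other 14 passed in neither direction.

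KIF3C, a kinesin-2 heavy chain found mainly in neurons, was lower at an intronic peak 3.28 kb from a start site, just outside the promoter window (chr2:25978971-25979472). Counts were 104, 96.4 and 152 in empty vector and 75.7, 68.4 and 74.3 in HMGB2OE libraries. The log2FC was -0.69 (SE 0.187, adjusted p = 0.0239), and the call was lost with DESeq2 (adjusted p = 0.0543) and without empty vector library 3 or any of the HMGB2OE libraries (adjusted p from 0.0516 to 0.184). A neighbouring intronic peak at chr2:25977807-25978308 also fell (627, 746 and 807 against 598, 596 and 547, log2FC -0.33, adjusted p = 0.0367), while the KIF3C promoter had a log2FC of 0.03.

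**Figure D3:**
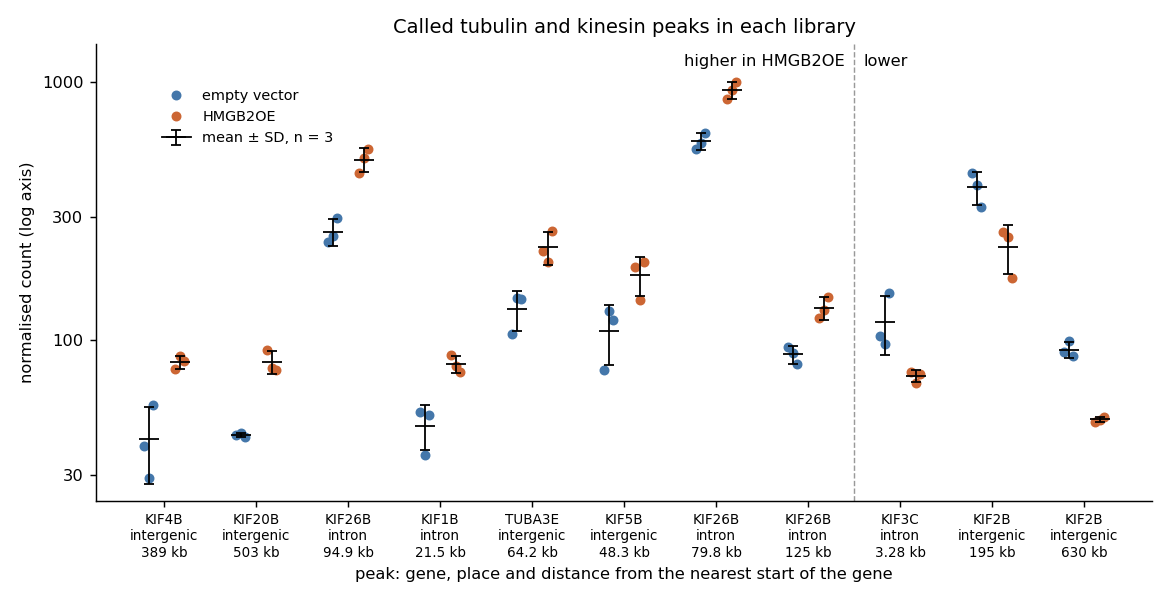
Normalised count (log axis) of the 11 called tubulin and kinesin peaks in each library, with empty vector in blue, HMGB2OE in orange and bars for the mean ± SD (n = 3). Under each peak stand its gene, its place and its distance from the nearest start of the gene, and in all 11 the libraries of the conditions do not overlap.

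Below the fold limit, 4 further member peaks were higher and 8 lower at the adjusted p alone. The rises were in KIF26B (above), KIF4B (log2FC 0.56), KIF13A (0.44) and KIF3B (0.41). The falls were at KIF25 (2 intronic peaks, -0.58 and -0.40), KIFC3 (-0.52), KIF13A (-0.50), KIF24 (-0.46), KIF2B (-0.45), KIF20B (-0.42) and KIF3C (-0.33). KIF13A, a kinesin-3 of endosome transport, thus had 1 intronic peak in each direction. KIF25 and KIFC3 belong to kinesin-14, the family of motors that walk to the minus end. Of all 12 peaks higher at the adjusted p, the called ones included, 5 held the AP-1 word, and of the 11 lower 6 did. The word lay in 28% of all tested peaks and in 29.2% of member peaks without those nearest TUBA3C. Counts this small are not read as a difference.

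The intergenic peaks nearest TUBA3C, an alpha-tubulin gene of chromosome 13, were a separate block of low counts. They made up 285 of the 786 member peaks and 246 (33.1%) of those tested, all intergenic between 16064737 and 19365654 on chromosome 13 (hg38), with a median distance of 1.83 Mb from the gene. Their median normalised count was 24.3 and their median GC content 39.2%, against 107 and 47.2% for the other 497 tested member peaks. A copy elsewhere in the genome (at least 90% of the peak at 95% identity or more) was found for 82.5% of them, with a median of 7 copies, against 5.19% of the other 501 member peaks and 7.66% of 757 peaks sampled from the rest of the table. Reads from copied sequence can be hard to place, and how the authors treated reads with several alignments is not given in the sources used here.

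None of the 246 peaks was called in either direction, and their median log2FC was -0.17. Summed over the 285 peaks, normalised counts were 15310, 8874 and 12290 in empty vector and 10800, 10170 and 13910 in HMGB2OE libraries (log2FC -0.06, SE 0.13, adjusted p = 0.801). The sums overlapped between the conditions. The library with the fewest total counts (empty vector 1) had the highest sum and the one with the most (empty vector 2) the lowest, and the part of depth in these values was not tested. Without these peaks the members had 8 of 497 (1.61%) higher and 3 (0.604%) lower, and their median log2FC was 0.01 in place of -0.03, beside -0.0049 over all tested peaks.

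**Figure D4:**
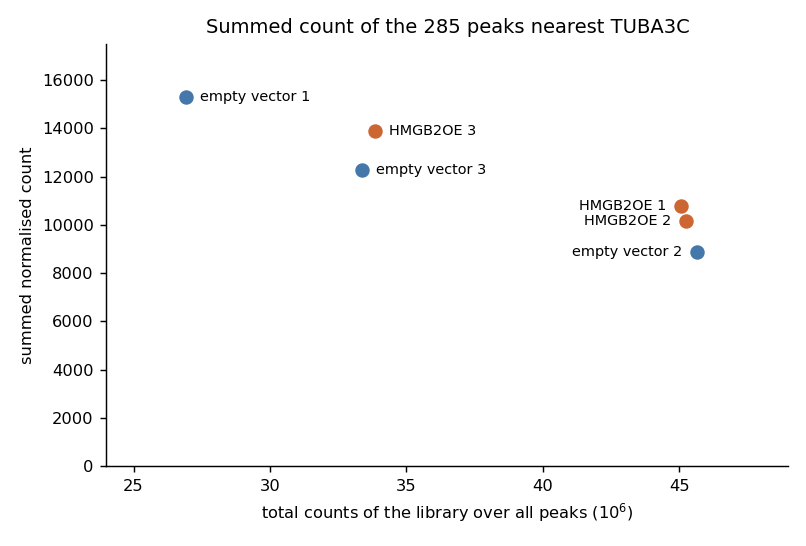
Summed normalised count of the 285 peaks nearest TUBA3C (vertical axis, from 0) against the total counts of each library over all peaks, with empty vector libraries in blue and HMGB2OE libraries in orange. The sums run from 8874 to 15310 and are lower in the 3 libraries of highest total than in the other 3, in both conditions.

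At promoters, within 3 kb of a start site, 0 of 118 tested tubulin and kinesin peaks passed the adjusted p in edgeR, while 16 had an unadjusted p under 0.05. Taking for each gene its promoter peak of highest mean count, 59 members had such a peak, and 0 passed (8 at an unadjusted p under 0.05, and 0 by DESeq2), against 3.13% of the 16280 genes with a promoter peak. The share of all peaks at the unadjusted threshold was not counted, so the 16 and the 8 have no background here and are not read as changes. The log2FC values of the 59 had a median SE of 0.0859, and they ran from -0.32 (KIF4B) to 0.26 (TUBB8B). In 45 of 59 the log2FC was below 0, and the median was -0.08. Over all genes 71.3% of promoter peaks were below 0, with a median of -0.07, so the members lay near the background. With a loess scaling 36 of 59 were below 0 (59.5% of all genes). KIF17, KIF19, KIF25, KIF2B, TUBA3C, TUBA3D and TUBA3E had no tested promoter peak. For some members the peak also lay within 3 kb of a start of another gene, such as RPS6KB1 for TUBD1, FAM229B for TUBE1 and NUDT2 for KIF24.

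Tubulin promoters covered a wide range of levels. TUBB4B, a beta-tubulin made in most cells, had the highest promoter count of all members, with 2577, 2597 and 2994 in empty vector and 2830, 2678 and 2942 in HMGB2OE libraries (log2FC 0.05, SE 0.0737). Among alpha-tubulins the promoter of TUBA1A was highest (mean 1600, log2FC 0.05, in a peak centred within the overlapping TUBA1C), and that of TUBA8 lowest (155, 0.22, adjusted p = 0.428). TUBB8B had the lowest beta-tubulin promoter (86.8, with 5 copies elsewhere). TUBB3, the beta-tubulin isotype of neurons, had an open promoter in every library, with 1543, 1694 and 1740 in empty vector and 1698, 1576 and 1707 in HMGB2OE libraries, and its log2FC was -0.000114 (SE 0.0759). The TUBB3 peak also lay near a start of another annotated gene that overlaps it. The promoter counts of the other beta-tubulins of the neuronal set, TUBB2B (116), TUBB4A (149) and TUBB2A (464), were below that of TUBB3 in every library. At TUBB2A each HMGB2OE library was below each empty vector library, with 554.5, 499.9 and 468.1 against 429.3, 445.4 and 389.5 (log2FC -0.26, SE 0.101, adjusted p = 0.119). Gamma-tubulin, which nucleates microtubules, was represented by TUBG1 (mean 1588, log2FC -0.12) and TUBG2 (641, -0.19), and the centriolar tubulins by TUBD1 (911, -0.06) and TUBE1 (670, -0.06). None of these differences passed the test.

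Among all kinesins, the most accessible promoters were those of KIF21A (2430), a kinesin-4 that curbs microtubule growth at the cell cortex, and KIF1B (2418). Their log2FC values were -0.10 and -0.01. KIF4B had the lowest (68.1), with counts of 66.7, 66.3 and 93.6 against 48.5, 65.1 and 68.7 (log2FC -0.32, SE 0.217, adjusted p = 0.429). In kinesin-1 the promoter counts were 973 for KIF5A and 504 for KIF5B (log2FC values -0.10 and -0.21). The KIF5A peak is also the promoter peak of the dynactin gene DCTN2, so its count cannot be credited to KIF5A alone. In kinesin-2 the counts were 1213 for KIF3A and 363 for KIF3B (-0.10 and -0.08), and KIF3C had 640. The lowest kinesin-3 promoter was that of KIF1A (275, log2FC 0.01). In kinesin-9 KIF9 had 1204 (-0.20, in a peak also near a start of KLHL18) and KIF6 had 607 (-0.00019), and in kinesin-11 KIF26A had 97.4 (-0.06). Of 11 transport kinesins and tubulins typical of neurons, 0 of 67 tested peaks were higher and 1 (KIF3C) was lower. Over all tested peaks 1.87% were higher and 1.44% lower, so counts this small are not read as a difference. The median promoter log2FC of these genes was -0.01, beside -0.07 over all genes.

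The 12 mitotic kinesins had promoters of middle to high accessibility, from KIF15 (595) to KIF20B (1889). In 11 of 12 the log2FC was below 0, with a median of -0.12, against 71.3% of all genes' promoter peaks, with a median of -0.07. With the loess scaling it was below 0 in 8 of 12, against 59.5% of all. Some of these peaks also lay near a start of another gene, at KIF11 (IDE), KIF18A (METTL15), KIF4A (PDZD11), KIF20A (BRD8) and KIF15 (KIAA1143). None of the 12 promoters passed the test. At KIF20B the counts were 1958, 1938 and 1990 in empty vector and 1857, 1822 and 1771 in HMGB2OE libraries. These did not overlap, yet the log2FC was only -0.11 (adjusted p = 0.399). Among the 59 promoter peaks of highest count per gene, that of KIF15, which backs up the spindle motor KIF11, had the smallest adjusted p, with counts of 712, 709 and 544 against 505, 621 and 480 (log2FC -0.29, SE 0.109, adjusted p = 0.11). It passed without empty vector library 3 (-0.41, adjusted p = 0.0277), without HMGB2OE library 2 (-0.41, 0.0477) and with GC-content offsets and a replicate block (-0.31, 0.0388). The other highest and lowest promoters were KIFC1 (1681, log2FC -0.12) and KIFC2 (770, -0.15) in kinesin-14, KIF18A (1243, -0.05) and KIF18B (977, 0.02) in kinesin-8, KIF23 (1032, -0.12) in kinesin-6, KIF12 (244, -0.23) in kinesin-12, and KIF24 (2292, -0.08) and KIF2C (888, -0.15) in kinesin-13. The KIFC2 peak is centred in TMEM276 and also lay near a start of ZFTRAF1. The 1 tested peak assigned to KIFC2 had a log2FC of 0.26 and did not pass. KIF11 (1467, -0.15) and KIF22 (1596, -0.04) were the only members of their families. The KIF11 values are those of a peak centred in IDE, and the weaker peak over its own promoter sequence is given with its summed count. Of 73 tested peaks in the mitotic set 1 was higher (KIF20B) and 0 were lower, against 1.87% and 1.44% of all tested peaks. The set did not include KIF2B (2 of 17 tested peaks lower) or KIF4B (1 of 17 higher), so these counts depend on which genes were listed.

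**Figure D5:**
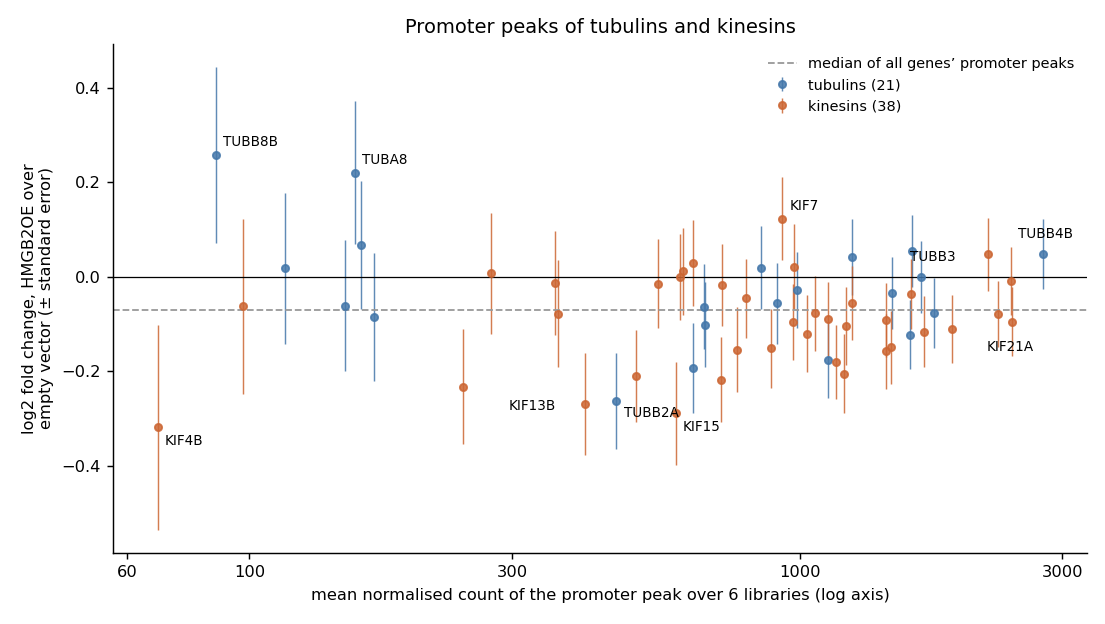
Mean normalised count of the promoter peak over the 6 libraries (log axis) against its log2FC in HMGB2OE over empty vector cells, with SE, for 21 tubulins and 38 kinesins. The dashed line is the median of all genes' promoter peaks (-0.07), and the errors widen from TUBB4B, at a count of 2770, to KIF4B, at 68.1.

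When the counts of all peaks of a gene were summed, 3 of 64 members passed (adjusted p under 0.05 over 18340 genes), 1 higher and 2 lower, against 5.83% of all genes higher and 3.44% lower. KIF26B was higher, with sums of 8055, 7944 and 8073 in empty vector and 8936, 8894 and 9211 in HMGB2OE libraries (log2FC 0.17, SE 0.0358, adjusted p = 0.00744). It missed the threshold without empty vector library 2 (adjusted p = 0.0539). KIF24, a centriolar kinesin-13 that restrains cilium formation, was lower over its 3 peaks (1271, 1336 and 1455 against 1154, 1134 and 1193, log2FC -0.23, SE 0.0579, adjusted p = 0.0209). Most of its sum came from an intronic peak that fell from 748, 853 and 923 to 600, 599 and 639. Its call was lost without any of 4 libraries (empty vector 2 or 3, HMGB2OE 1 or 2, adjusted p up to 0.0822).

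KIF11, the motor that pushes spindle poles apart, was lower over 9 peaks (3026, 2849 and 2616 against 2518, 2520 and 2372, log2FC -0.19, SE 0.0512, adjusted p = 0.0236). Of its 9 peaks 8 had a log2FC below 0, and none passed alone. The peak of highest count near its start, used for the promoter values, is another (chr10:92573703-92574204), which is centred in IDE, is not among the 9, and shares 0 bases with the promoter sequence shown above. The peak over the KIF11 promoter sequence shown above (chr10:92592843-92593344) had 1024, 1016 and 816 counts in empty vector and 787, 870 and 646 in HMGB2OE libraries (log2FC -0.31, adjusted p = 0.0638), and these overlapped. This second peak passed without empty vector library 3 (-0.41, adjusted p = 0.0209) or HMGB2OE library 2 (-0.41, 0.038). Without any of 4 libraries (empty vector 1 or 2, HMGB2OE 1 or 3) the KIF11 sum missed the threshold (adjusted p up to 0.109). The median log2FC of the sums was -0.01 over members and -0.0021 over all genes.

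Related microtubule genes were read from lists of their partners. The background for each list was 1.87% of all tested peaks higher and 1.44% lower. For tubulin modification, 14 of 289 tested peaks (4.84%) were higher and 5 (1.73%) lower. AGBL1, which encodes a carboxypeptidase that trims glutamates and is named here after its values were seen, held 8 of the 14 and 1 of the 5 among 27 peaks, and its summed count had a log2FC of 0.34 (SE 0.0392, adjusted p = 7.14e-05). ATAT1, the acetyltransferase of alpha-tubulin, had promoter counts of 482, 575 and 543 in empty vector and 564, 515 and 471 in HMGB2OE libraries, which overlapped (log2FC -0.05, SE 0.0995, adjusted p = 0.832). HDAC6, which removes this acetyl group, had 2518, 2778 and 3045 against 3065, 2706 and 3156 (0.10, SE 0.0772, adjusted p = 0.512). No promoter of the 23 modification genes with a promoter peak passed the adjusted p, against 3.13% of all genes with such a peak.

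Peaks of the gamma-tubulin ring complex numbered 90, with 3 (3.33%) higher and 0 lower. Microtubule-associated proteins had 9 (2.26%) higher and 4 (1.01%) lower of 398, near the 1.87% and 1.44% of all tested peaks. Dynein and dynactin had 0 higher and 1 (0.629%) lower of 159. The tubulin folding cofactors had 0 in either direction of 44 (3 higher and 0 lower at the adjusted p alone, against 3.44% and 3.03% of all peaks). Kinesin light chains and adaptors, listed with the kinesin CENPE, had 0 higher and 4 (4.49%) lower of 89. Promoters passed in 2 of these lists. KLC1 and KLC4, light chains that join cargo to kinesin-1, were lower (473, 493 and 517 against 392, 386 and 402, log2FC -0.33, adjusted p = 0.0376, and 823, 774 and 764 against 609, 697 and 602, -0.31, adjusted p = 0.0351). TRAK1, the adaptor of mitochondria, was higher (667, 723 and 788 against 917, 923 and 855, 0.31, adjusted p = 0.0295). STMN2, which binds free tubulin in neurons, was lower (934, 993 and 937 against 782, 729 and 714, -0.36, adjusted p = 0.00728), as was CLASP1, which stabilises growing ends (921, 887 and 850 against 717, 778 and 674, -0.29, adjusted p = 0.038). In each of these 5 promoters the libraries of the conditions did not overlap, and each change was below the 1.5-fold limit. STMN2 kept its call in all 15 other settings tried. CLASP1 missed the threshold without empty vector library 1 or 2 or HMGB2OE library 1 or 3 (adjusted p up to 0.15), KLC4 without these or empty vector library 3 (up to 0.17), and KLC1 without any library but empty vector 1 (up to 0.13). TRAK1 missed it with GC-content offsets (adjusted p = 0.0869) and without empty vector library 1 or 2 or HMGB2OE library 1 or 2 (up to 0.128).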

How the data were processed

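ATAC-seq libraries of A375 cells (3 empty vector, 3 HMGB2OE) were grouped by the genotype and title in their labels. Per the study's methods and processing notes, the authors trimmed reads with Trim Galore 0.6.7 and cutadapt 4.0 (checked with FastQC 0.12.1) and mapped them to hg38 by Bowtie 2. Duplicate reads were marked by Picard, MACS2 peaks were taken over published melanocyte data as control, blacklist regions were dropped, and featureCounts gave the reads in 1 merged peak set. The deposited values are raw counts per peak and library, with no normalisation. Whether positions were shifted for the transposase is not given in the sources used here, and regions outside the peak set have no value. Of the cell type markers listed, 1 is not reported here.

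Counts of all peaks were fitted with edgeR 4.0.16 in R 4.3.3 (TMM, filterByExpr, glmQLFit and glmQLFTest, no covariate). Adjusted p-values are Benjamini-Hochberg values over all 150117 tested peaks, and standard errors were derived from the size of the log2 fold change and its F statistic. DESeq2 1.42.0 (Wald test) was an alternative. Summed counts per gene were fitted in the same way over 18340 genes. Peaks were annotated with GENCODE release 44, and 17 member peaks lay in more than 1 gene body and counted for each. Copies were found with minimap2 2.31 on the primary chromosomes. Promoter sequences came from RefSeq and peak sequences from hg38. Replicates differed by more than sampling noise.

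Named are all called member peaks, the promoters of highest and lowest mean count in each family and in the mitotic and neuronal sets, promoters of members with a call, members with a called sum, related genes with a promoter passing the adjusted p, ATAT1 and HDAC6. TUBB2A, TUBB4A, AGBL1, the second KIF11 promoter peak and the peaks passing the adjusted p alone were named after their values were seen. Members, lists and roles were chosen with earlier results of these data known. Alternatives were other scalings (library totals, DESeq2's size factors, a loess trend on mean count), other filters (none, or 10 counts in every library), GC-content offsets, a replicate block, both together, each library left out, fold limits of 1.25 and none, and assignment of every peak to the nearest start. Leaving out the peaks nearest TUBA3C, and intergenic peaks over 100 kb away, was added after seeing the data.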

Additional observations from a re-analysis of the deposited data

How the results depend on the processing

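With 3 libraries a condition and 1 line each, several calls at low counts rest on single libraries, and peaks with copies elsewhere have uncertain counts. Of 165 values of called peaks under other settings, 144 stayed called and 21 were lost, and all kept their direction. Member peaks called higher ranged from 5 to 9 and those called lower from 3 to 9 when libraries were left out in turn (5 without HMGB2OE library 1, 9 lower without empty vector library 2). Peaks called lower numbered 11 with the smaller fold limit, 11 with none and 1 without intergenic peaks over 100 kb away. Over all peaks, 56.4% of calls were higher, against 62.6% with library totals and 50.4% with the loess trend. The median log2 fold change of member peaks ranged from -0.09 to 0.04 with libraries left out, so its sign changed with the library left out. Summed counts passed for 0 members (without empty vector library 2) to 4, and for 1 without HMGB2OE library 1. Deviations of same-numbered libraries of the conditions correlated at -0.0886, 0.185 and 0.125, and those of different-numbered libraries at -0.266 to 0.152. With 3 libraries a condition this cannot decide whether replicate numbers pair the libraries. The replicate block called 9 member peaks higher and 4 lower and 5 summed counts, as did the block with GC-content offsets for the sums (KIF21B and TUBD1 were added). The second KIF11 promoter peak passed with the replicate block (adjusted p = 0.0213) and with the block and GC-content offsets (0.0202). The causes were not tested.

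Among the 44 promoter peaks of highest count of named members and related genes, 43 of 660 values changed sign around 0, none of them of a promoter that passed in all libraries, and the 20 calls lost were those of CLASP1, KLC1, KLC4 and TRAK1. The log2 fold changes were 0.0030 for KIF18A and 0.022 for KIF22 with the loess trend. They were 0.011 (library totals), 0.055 (loess), 0.027 (GC-content offsets) and 0.029 (GC-content offsets with the replicate block) for KIF1B. For TUBB3 they were 0.021 (library totals), 0.0040 (DESeq2 size factors), 0.061 (loess), 0.00027 (no filter), 0.0011 (replicate block) and 0.0036 (DESeq2), and for TUBB2B -0.013 (loess). For KIF6 they were 0.021 (library totals), 0.0041 (DESeq2 size factors), 0.041 (loess), 0.00021 (no filter), 0.00049 (replicate block) and 0.0042 (DESeq2). With libraries left out they ranged from -0.067 to 0.097 for KIF18B, -0.13 to 0.14 for KIF1A, -0.053 to 0.036 for KIF1B, -0.24 to 0.038 for KIF26A, -0.0496 to 0.061 for KIF26B, -0.18 to 0.017 for KIF3B, -0.0089 to 0.085 for KIF3C, -0.047 to 0.036 for TUBB3, -0.083 to 0.12 for TUBB2B, -0.033 to 0.034 for KIF6 and -0.12 to 0.012 for ATAT1.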
